A study of Mus musculus with 19 samples.

Results

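The liver answers tissue injury by secreting acute phase proteins, and 10 genes of this response outside the serum amyloid A family were followed here: *Serpina3n*, *Lcn2*, *Lrg1*, *Orm1*, *Orm2*, *Orm3*, *Hp*, *Hpx*, *Itih4* and *Apcs*. They are 10 of the 31053 genes listed in the count table, and all 10 were counted in enough libraries to be tested. The genes were chosen by their names, with their higher counts in livers given AAV-miR-34b/c already known. Differences between AAV-miR-34b/c and the other groups are therefore given for these genes as a description, and where edgeR calls are counted in them, nothing is read from the counts. AAV-GFP was tested against vehicle, although its libraries also entered the comparison that led to the choice. That choice favors genes with low counts in these AAV-GFP libraries, so lower values in AAV-GFP than in vehicle are not independent of it, their p-values may be too small, and counts of genes called in this comparison are also read as a description.

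In the acute phase response, cytokines such as interleukin 6, interleukin 1 and tumour necrosis factor reach hepatocytes from macrophages and other cells and change which plasma proteins are made. Interleukin 6 acts through its receptor and the shared subunit gp130 to activate the transcription factor STAT3. Interleukin 1 and tumour necrosis factor act through NF-kB, and both routes meet with the C/EBP factors at the promoters of acute phase genes. Genes that respond mainly to interleukin 6 are called class 2, and those that also need interleukin 1 are called class 1. Orosomucoids and serum amyloid A are textbook class 1 genes, whereas fibrinogen is a class 2 gene.

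RNA was from livers of male C57BL6J mice, which were 6 to 8 weeks old at the start. The vehicle group (n = 5) is labelled as treated with PBS, and its labels name no vector. The AAV-GFP group (n = 7) received thioacetamide (TAA), a hepatotoxin that causes fibrosis, in increasing doses for 12 weeks. These mice were injected at week 10 with AAV8 TBG eGFP and sacrificed 4 weeks after the injection. The AAV-miR-34b/c group (n = 7) had the same schedule, with miR-34b and miR-34c each carried by its own AAV8 TBG vector and both vectors given together. TBG is the promoter of thyroxine-binding globulin and restricts the transgene to hepatocytes, and AAV8 is a vector serotype that enters the liver well. Whether the vehicle mice also received a vector is not stated in the labels. If they did not, vehicle differs from both TAA groups in the toxin and in the vector, and effects of TAA and of AAV cannot be told apart in comparisons with vehicle.

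Coordinates are those of GENCODE on the mouse build GRCm38. The orosomucoid genes, whose proteins carry basic and lipophilic drugs in plasma and restrain inflammation, lie side by side on the plus strand of chromosome 4: *Orm1* (ENSMUSG00000039196) at chr4:63344560-63348163, *Orm3* (ENSMUSG00000028359) at chr4:63356162-63359511 and *Orm2* (ENSMUSG00000061540) at chr4:63362449-63365878. *Lcn2* (ENSMUSG00000026822, chr2:32384633-32388252, minus strand) encodes lipocalin 2, which withholds iron from bacteria by binding their siderophores. *Hp* (ENSMUSG00000031722, chr8:109575128-109579172, minus strand) encodes haptoglobin, which captures free haemoglobin, and *Hpx* (ENSMUSG00000030895, chr7:105591613-105600137, minus strand) encodes hemopexin, which captures free haem. *Serpina3n* (ENSMUSG00000021091, chr12:104406729-104414329, plus strand) encodes a serine protease inhibitor related to human antichymotrypsin. *Itih4* (ENSMUSG00000021922, chr14:30886476-30902353, plus strand) belongs to the inter-alpha-trypsin inhibitor heavy chains. *Apcs* (ENSMUSG00000026542, chr1:172893961-172895041, minus strand) encodes serum amyloid P component, a pentraxin and the main acute phase pentraxin of the mouse. *Lrg1* (ENSMUSG00000037095, chr17:56119678-56122001, minus strand) encodes leucine-rich alpha-2-glycoprotein, a secreted modifier of TGF-beta signaling.

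RefSeq promoter windows on GRCm38.p6, from 250 bases before to 50 bases after the start site (300 bases in all), were held for 8 of the 10 genes. *Orm1* and *Hp* had no entry. Windows were searched on both strands for a STAT motif (TTCNNNGAA), a C/EBP motif (TTNNGNAA) and an NF-kB motif (GGANTTTCC), which do not overlap in the matches found here. The windows of *Orm2* and *Orm3* are shown because these 2 genes had the largest differences in AAV-GFP against vehicle and in AAV-miR-34b/c against AAV-GFP, and those of *Itih4* and *Apcs* because they held the STAT motif. Each is written 5′ to 3′ on the strand of its gene, with motif matches in capitals.
Orm2: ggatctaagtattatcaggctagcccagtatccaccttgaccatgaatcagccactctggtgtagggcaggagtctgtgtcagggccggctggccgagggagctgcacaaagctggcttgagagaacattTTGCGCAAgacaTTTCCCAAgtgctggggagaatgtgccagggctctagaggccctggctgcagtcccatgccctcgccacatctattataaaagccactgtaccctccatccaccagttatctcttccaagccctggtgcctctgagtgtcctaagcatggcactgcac
Orm3: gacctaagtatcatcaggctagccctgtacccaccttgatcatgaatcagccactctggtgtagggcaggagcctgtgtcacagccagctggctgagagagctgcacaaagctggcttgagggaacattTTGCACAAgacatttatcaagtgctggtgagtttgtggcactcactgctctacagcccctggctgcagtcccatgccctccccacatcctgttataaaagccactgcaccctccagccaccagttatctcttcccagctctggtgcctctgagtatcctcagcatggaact
Itih4: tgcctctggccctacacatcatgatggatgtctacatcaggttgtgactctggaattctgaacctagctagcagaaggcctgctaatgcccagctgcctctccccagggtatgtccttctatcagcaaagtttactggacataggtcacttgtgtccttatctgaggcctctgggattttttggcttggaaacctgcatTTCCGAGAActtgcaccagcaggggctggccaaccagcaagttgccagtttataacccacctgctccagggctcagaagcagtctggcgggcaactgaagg
Apcs: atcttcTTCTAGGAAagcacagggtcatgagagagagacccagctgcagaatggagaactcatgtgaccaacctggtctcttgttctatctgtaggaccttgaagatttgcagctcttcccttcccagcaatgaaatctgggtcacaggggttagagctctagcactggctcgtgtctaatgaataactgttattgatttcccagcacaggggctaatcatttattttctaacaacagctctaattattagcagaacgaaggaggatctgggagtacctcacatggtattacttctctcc

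The *Orm2* window spans chr4:63362199-63362498 on the plus strand and held C/EBP matches at -120 to -113 and at -108 to -101 from the start site. The *Orm3* window spans chr4:63355908-63356207 on the plus strand, and its C/EBP match lay at -121 to -114. These 2 windows were 86.2% identical over their alignment. *Itih4* (chr14:30886226-30886525, plus strand) held a STAT match at -51 to -43, and *Apcs* (chr1:172895005-172895304, minus strand) held a STAT match at -244 to -236. The STAT motif was found in 2 of the 8 windows, compared to 8.29% of 32817 windows of this length. The C/EBP motif was found in 5 of the 8 windows, compared to 40.7% of all windows. The NF-kB letters were in none of the 8 windows and in 1.26% of all windows. The *Lcn2* window starts from a site 513 bases from the annotated gene start, and these matches are letters in a window and not measured binding.

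Total counts ranged from 2214073 to 5208405 per library, and the 10 genes together took 1.47% to 3.43% of the counts in vehicle, 1.08% to 3.32% in AAV-GFP and 2.38% to 7.16% in AAV-miR-34b/c. Once counting noise was taken off, 6 pairs of libraries within a group differed by a coefficient of variation of 0.0812 to 0.171, compared to 0.215 to 0.480 in the other 46 pairs. These close pairs were vehicle 1 and 4, vehicle 3 and 5, AAV-GFP 1 and 2, and AAV-miR-34b/c 1 and 2, 3 and 4, and 5 and 7. They still differed by more than counting noise (chi-square per gene of at least 2.90), so they were kept as separate libraries, and counts of calls are also given with each pair summed. Preparations of 1 liver could differ by as much, and whether each close pair came from separate mice could not be settled from these files. If they did not, the number of mice is smaller than n and the SEs and p-values over all libraries are too small. The labels call all libraries biological replicates, and p-values measure the spread between these libraries only. Mitochondrial genes took 3.73% to 5.65% of the counts in vehicle and fell into 2 ranges in both TAA groups. The share was 4.83% to 5.50% in AAV-GFP 5 to 7 and 7.85% to 9.41% in AAV-GFP 1 to 4. It was 3.71% and 3.73% in AAV-miR-34b/c 1 and 2 and 8.21% to 10.8% in AAV-miR-34b/c 3 to 7. Results are given below within these ranges where the ranges hold both groups.

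Counts of the drug-carrying orosomucoids were lower in AAV-GFP than in vehicle livers with all 12 libraries used. These calls rested on vehicle 1 and 4: without them none of the 3 genes was called and log2 fold changes were -0.46 for *Orm1*, 0.10 for *Orm2* and -1.35 for *Orm3*. None of the 3 was called with close pairs summed either (edgeR adjusted p = 0.140, 0.170 and 0.0605). *Orm1* was at 6518, 2557, 2707, 6862 and 2155 normalized counts (CPM, scaled by TMM over all 19 libraries) in vehicle libraries 1 to 5. In AAV-GFP livers it ranged from 999 to 3420 CPM with a median of 1507, and in AAV-miR-34b/c livers from 2617 to 17060 CPM with a median of 6760. Vehicle 1 and 4 were the high vehicle libraries, and 5 of 7 AAV-GFP libraries lay below all vehicle libraries. The log2 fold change of AAV-GFP against vehicle was -1.20 (SE 0.32, edgeR adjusted p = 0.0186; two-sided exact permutation p = 0.0152 over 792 divisions of the 12 libraries). In bulk liver, fewer cells of a type and less RNA per cell cannot be told apart.

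*Orm2* showed the same split among vehicle livers, with 282 and 280 CPM in libraries 1 and 4 and 29.3, 15.5 and 14.1 CPM in libraries 2, 3 and 5. It ranged from 3.16 to 89.9 CPM in AAV-GFP livers (median 11.2) and from 55.4 to 1934 CPM in AAV-miR-34b/c livers (median 994). Its log2 fold change in AAV-GFP against vehicle was -2.54 (SE 0.77, edgeR adjusted p = 0.0355), whereas the exact permutation test gave p = 0.0568. *Orm3* was at 122 and 121 CPM in vehicle 1 and 4 and at 34.9, 13.7 and 15.4 CPM in vehicle 2, 3 and 5. It ranged from 0.289 to 30.4 CPM in AAV-GFP livers (median 4.87, from 1 to 139 counts per library) and from 17.1 to 395 CPM in AAV-miR-34b/c livers (median 235). The high vehicle libraries were again 1 and 4, and 6 of 7 AAV-GFP libraries lay below all vehicle libraries. The log2 fold change was -2.85 (SE 0.64, edgeR adjusted p = 0.00795; exact permutation p = 0.0126).

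The orosomucoids also share sequence at the 3′ ends that the libraries read. Over the last 500 bases of their transcripts, *Orm1* and *Orm2* were 93.8% identical, and 47 of 401 windows of 100 bases, the read length, were present in both. *Orm1* with *Orm3* and *Orm2* with *Orm3* were 88.4% and 88.8% identical and shared none of these windows. Of 451 windows of 50 bases, *Orm1* and *Orm2* shared 147, and *Orm3* shared 16 with *Orm1* and 26 with *Orm2*. Reads from shared windows could have been lost or assigned to either gene. The separate values of *Orm1* and *Orm2* are therefore less certain than the others, as are those of *Orm3* where reads were shorter than 100 bases. *Serpina3n* shared no such window with the 9 paralogs compared.

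*Apcs*, the pentraxin, was also lower in AAV-GFP livers with all 12 libraries used. Vehicle libraries 1 to 5 held 909, 285, 146, 998 and 196 CPM. AAV-GFP livers ranged from 59.3 to 217 CPM (median 99.4) and AAV-miR-34b/c livers from 296 to 3091 CPM (median 748). Vehicle 1 and 4 stood above the other vehicle livers, and all AAV-miR-34b/c libraries were above all AAV-GFP libraries. The log2 fold change of AAV-GFP against vehicle was -2.12 (SE 0.42, edgeR adjusted p = 0.00307; exact permutation p = 0.00758), with 5 of 7 AAV-GFP libraries below all vehicle libraries. Without vehicle 1 and 4 it was -0.85 and not called (adjusted p = 0.171), and the call also ended under a mitochondrial share of 6%.

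The scavengers of haemoglobin and haem overlapped between vehicle and AAV-GFP livers. *Hp* was at 6478, 2300, 5082, 6543 and 4245 CPM in vehicle 1 to 5, at 2461 to 8205 CPM in AAV-GFP livers (median 2950) and at 5021 to 20970 CPM in AAV-miR-34b/c livers (median 11330). Its log2 fold change in AAV-GFP against vehicle was -0.27 (SE 0.31, edgeR adjusted p = 0.587; exact permutation p = 0.414). *Hpx* was at 16050, 6357, 9110, 15820 and 8560 CPM in vehicle 1 to 5, at 4412 to 15230 CPM in AAV-GFP livers (median 6168) and at 8961 to 34000 CPM in AAV-miR-34b/c livers (median 14570). Libraries 1 and 4 were highest in vehicle and libraries 4 and 5 highest in AAV-GFP for both genes. The log2 fold change of *Hpx* was -0.50 (SE 0.31, edgeR adjusted p = 0.293; exact permutation p = 0.157).

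*Itih4*, the inhibitor heavy chain, was at 1736, 1269, 967, 1787 and 937 CPM in vehicle 1 to 5. It ranged from 464 to 1797 CPM in AAV-GFP livers (median 877) and from 1444 to 3936 CPM in AAV-miR-34b/c livers (median 3004). Groups overlapped in every comparison. The log2 fold change of AAV-GFP against vehicle was -0.45 (SE 0.26, edgeR adjusted p = 0.258; exact permutation p = 0.134).

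*Lcn2*, the siderophore-binding lipocalin, had a wide range within each group. It was at 132, 16.5, 19.9, 132 and 23.8 CPM in vehicle 1 to 5. AAV-GFP livers ranged from 1.63 CPM in library 6 to 182 CPM in library 5 (median 14.9), and AAV-miR-34b/c livers from 115 to 1316 CPM (median 881). Vehicle 1 and 4 overlapped the range of the AAV-miR-34b/c group, as did AAV-GFP 5. The log2 fold change of AAV-GFP against vehicle was -0.52 (SE 0.79, edgeR adjusted p = 0.696; exact permutation p = 0.248).

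*Serpina3n* and *Lrg1* did not follow the split among vehicle livers. *Serpina3n*, the protease inhibitor, was at 255, 317, 312, 286 and 286 CPM in vehicle 1 to 5, with library 1 the lowest. It ranged from 114 to 425 CPM in AAV-GFP livers (median 251) and from 797 to 2174 CPM in AAV-miR-34b/c livers (median 1573). *Lrg1*, the TGF-beta modifier, was at 1348, 861, 1699, 1270 and 1463 CPM in vehicle 1 to 5, at 681 to 2523 CPM in AAV-GFP livers (median 1194) and at 3721 to 7547 CPM in AAV-miR-34b/c livers (median 4487). For both genes vehicle and AAV-GFP overlapped, and every AAV-miR-34b/c library was above every library of the other groups. The log2 fold changes of AAV-GFP against vehicle were -0.22 for *Serpina3n* (SE 0.24, edgeR adjusted p = 0.559; exact permutation p = 0.294) and 0.08 for *Lrg1* (SE 0.29, edgeR adjusted p = 0.878; exact permutation p = 0.914).

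**Figure D1:**
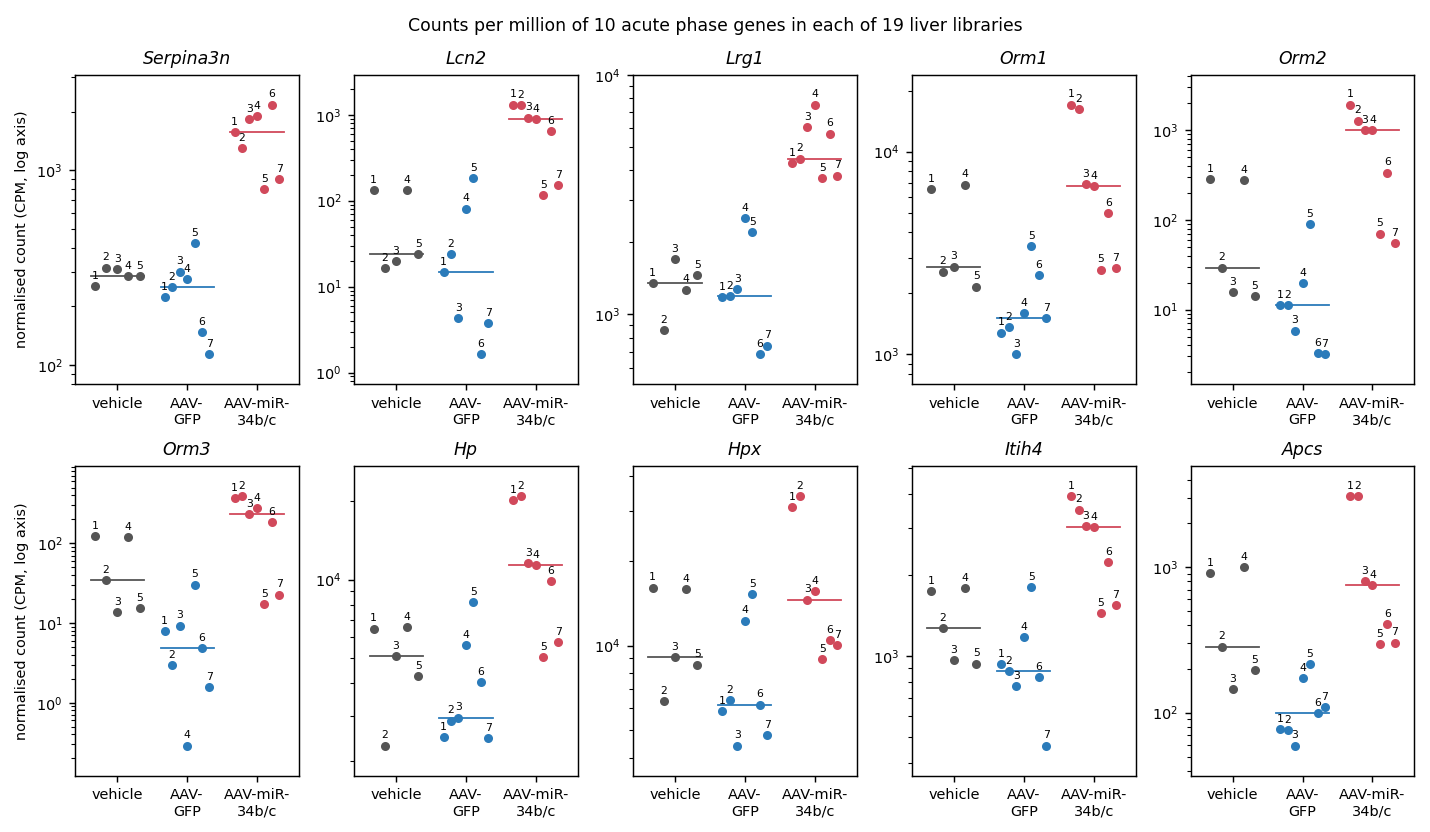
Normalized counts (CPM, log axis) of the 10 genes in each library. Each point is a library with its number in the group, and lines are group medians. Vehicle 1 and 4 lie above vehicle 2, 3 and 5 for 8 genes, and *Serpina3n* and *Lrg1* are the exceptions.

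In AAV-GFP against vehicle, 4 of the 10 genes (*Apcs*, *Orm3*, *Orm1* and *Orm2*) were called lower at an edgeR adjusted p under 0.05, compared to 5.19% of the 9522 genes tested. None was called higher, compared to 7.54% of all genes. No other member had an unadjusted p under 0.05, and DESeq2 and limma-voom, which called 1564 and 2687 genes in all, each called 3 of the 10 (*Orm1*, *Orm3* and *Apcs*). The median log2 fold change of the 10 genes was -0.51, compared to -0.01 over all genes tested. This count is a description, since the choice of the genes bears on it. Without vehicle 1 and 4 none of the 10 was called. Without AAV-GFP 4 and 5, 7 of the 10 were called lower, with 704 genes called in all in either direction, and the log2 fold change of *Lcn2* was -2.71. AAV-GFP 4 and 5 were the 2 highest AAV-GFP libraries for 7 of the 10 genes. More lower calls without them follow in part from that choice, which was made after seeing the data. *Apcs* alone was called with close pairs summed. Among libraries with a mitochondrial share under 6%, which hold all vehicle livers and AAV-GFP 5 to 7, none was called and the log2 fold changes were -0.75 for *Orm1*, -1.90 for *Orm2*, -2.25 for *Orm3* and -1.83 for *Apcs*. Leaving out vehicle 1 or vehicle 4 alone ended the calls of *Orm1* (log2 fold changes -0.978 and -0.941) and *Orm2* (-2.009 and -2.002). Leaving out any of AAV-GFP 1 to 4 ended that of *Orm2*, with log2 fold changes of -2.389 to -2.525, compared to -2.543 with all libraries.

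**Figure D2:**
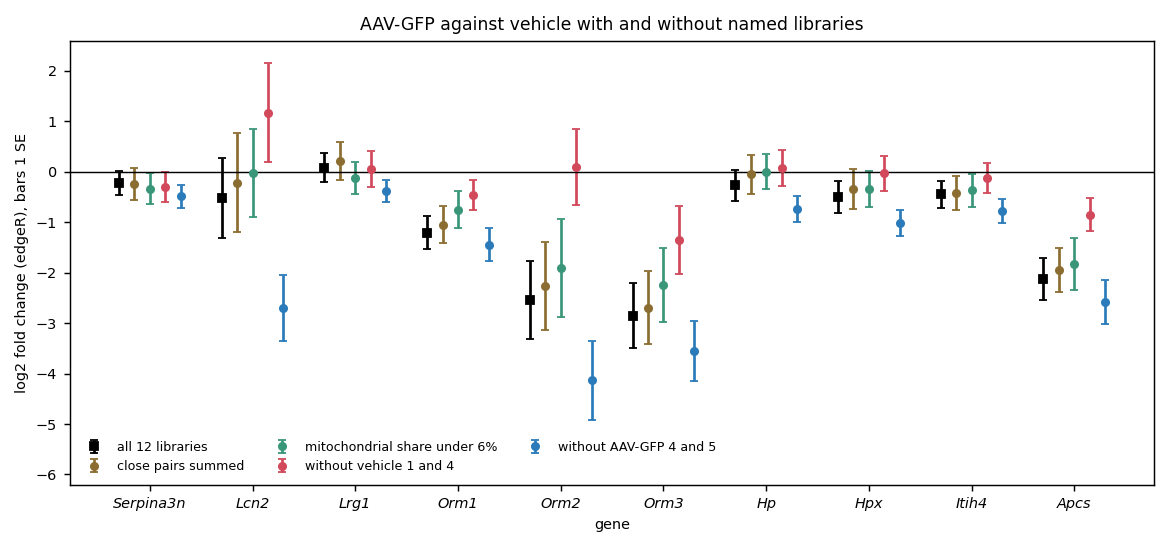
Log2 fold changes of AAV-GFP against vehicle (edgeR, bars of 1 SE) with all 12 libraries and under 4 changes of the libraries used. Without vehicle 1 and 4, *Orm2* moves from -2.54 to 0.10 and *Orm3* from -2.85 to -1.35, while *Serpina3n* and *Lrg1* stay between -0.48 and 0.21 under all 5.

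All 10 genes were higher in AAV-miR-34b/c than in AAV-GFP livers, the comparison in which they had been seen. The largest log2 fold changes were those of *Orm2* (5.25, SE 0.88), *Orm3* (4.65, SE 0.76), *Lcn2* (4.06, SE 0.85) and *Apcs* (3.42, SE 0.55). *Serpina3n* (2.58, SE 0.29), *Orm1* (2.17, SE 0.41) and *Lrg1* (1.85, SE 0.28) were intermediate. *Hp* (1.56, SE 0.35), *Itih4* (1.44, SE 0.27) and *Hpx* (1.17, SE 0.35) were the smallest. Of the 10, 9 (all but *Hpx*) were called higher, compared to 1.95% of 9252 genes, and nothing is read from this count, since the genes were chosen with it known. With close pairs summed 6 were called, without *Lcn2*, *Hp*, *Itih4* and *Hpx*. Without AAV-GFP 4 and 5 the log2 fold changes of *Lcn2* and *Orm2* were 6.25 and 6.84. All AAV-miR-34b/c libraries were above all AAV-GFP libraries for *Serpina3n*, *Lrg1* and *Apcs*, which is the case for 0.755% of 9928 genes.

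The differences were present in both ranges of the mitochondrial share. Between AAV-miR-34b/c 1 and 2 and AAV-GFP 5 to 7, log2 fold changes ran from 1.86 for *Itih4* and *Lrg1* to 5.60 for *Orm2*. Here AAV-miR-34b/c is represented only by a close pair that may come from 1 liver. These libraries were also the 2 highest of their group for 8 of the genes. The values of this range are therefore read as a description. Between AAV-miR-34b/c 3 to 7 and AAV-GFP 1 to 4, log2 fold changes ran from 0.70 for *Hpx* to 5.31 for *Orm2*. *Apcs* was at 4.45 in the first range and 2.39 in the second, whereas *Serpina3n* was at 2.65 and 2.52 and *Lrg1* at 1.86 and 1.78. The difference between the ranges was not tested.

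All 10 genes were also higher in AAV-miR-34b/c than in vehicle livers, a comparison that shares its AAV-miR-34b/c libraries with the previous one. *Lcn2* (3.54, SE 0.70), *Orm2* (2.70, SE 0.91) and *Serpina3n* (2.37, SE 0.24) had the largest log2 fold changes. *Lrg1* followed at 1.94 (SE 0.22), *Orm3* at 1.79 (SE 0.71), *Hp* at 1.30 (SE 0.36) and *Apcs* at 1.30 (SE 0.65). *Itih4* was at 1.0 (SE 0.27), *Orm1* at 0.98 (SE 0.47) and *Hpx* at 0.67 (SE 0.36). Of the 10, 6 were called higher, compared to 12.2% of 9290 genes, and *Orm1*, *Orm3*, *Hpx* and *Apcs* were not, a count from which nothing is read for the same reason. With close pairs summed *Serpina3n*, *Lcn2* and *Lrg1* were called. Only *Serpina3n* and *Lrg1* were above vehicle in every AAV-miR-34b/c library, as were 3.83% of 9928 genes. Without vehicle 1 and 4 the log2 fold change was 5.36 for *Orm2* and 2.59 for *Apcs*, and that of *Serpina3n* was 2.30. Among libraries with a mitochondrial share under 6% (AAV-miR-34b/c 1 and 2 and all vehicle livers) all 10 were called, as were 642 genes in all. Log2 fold changes ran from 1.48 for *Itih4* to 4.32 for *Lcn2*, with 2.0 for *Orm1*, 2.62 for *Orm3*, 1.54 for *Hpx* and 2.61 for *Apcs*. Nothing is read from this count either, since AAV-miR-34b/c 1 and 2 are a close pair that may come from 1 liver. They were also the 2 highest libraries of their group for 8 of the 10 genes.

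**Figure D3:**
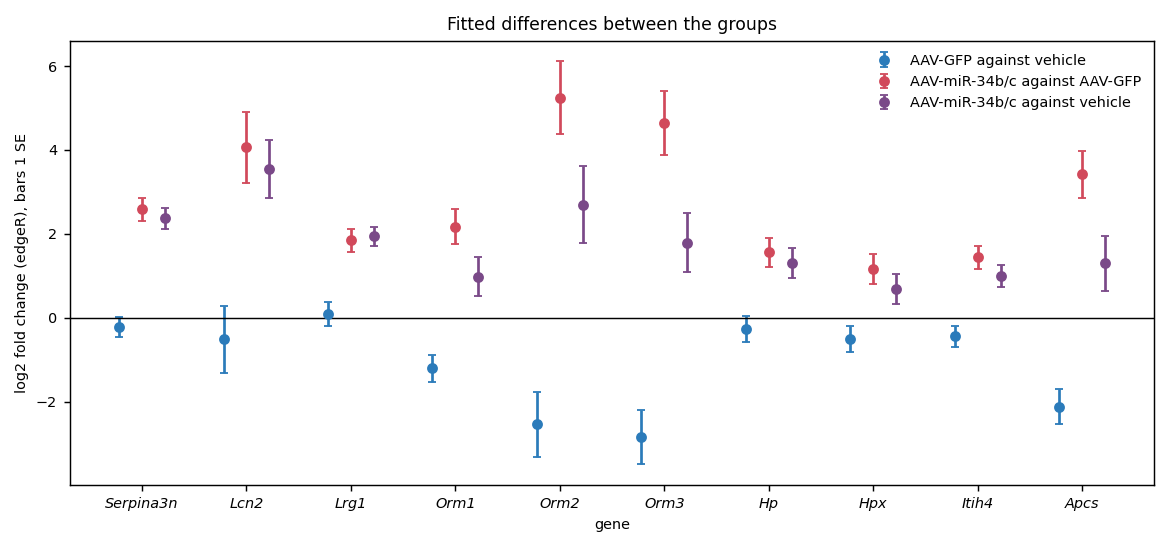
Log2 fold changes of the 10 genes in the 3 comparisons (edgeR, bars of 1 SE). Values against AAV-GFP exceed values against vehicle most for *Orm2*, *Orm3* and *Apcs*, 3 of the 4 genes called lower in AAV-GFP than in vehicle. The comparisons share libraries, so this excess restates the values of AAV-GFP against vehicle and is no separate result.

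The spread between libraries of a group, which include close pairs, is a measure that did not enter the choice of the genes. For most members it was wider than that of most genes. The exceptions were *Serpina3n* and *Lrg1* in vehicle and *Lrg1* in AAV-miR-34b/c livers. The SD of log2 CPM within the vehicle group was 2.16 for *Orm2*, 1.51 for *Orm3*, 1.49 for *Lcn2* and 1.27 for *Apcs*, compared to a median of 0.37 over 9928 genes. It was 0.13 for *Serpina3n*, which placed this gene at percentile 3.7 of all genes in vehicle livers, compared to 0.64 (percentile 81.9) in AAV-GFP and 0.56 (percentile 68.6) in AAV-miR-34b/c livers. *Orm1*, *Hp*, *Hpx* and *Itih4* lay between, at 0.80, 0.62, 0.59 and 0.45 in vehicle. Within AAV-GFP livers the SD was 2.33 for *Lcn2*, 1.64 for *Orm3* and 1.60 for *Orm2*, with a median of 0.42 over all genes. Within AAV-miR-34b/c livers it was 2.07 for *Orm2*, 1.89 for *Orm3* and 1.46 for *Lcn2*, with a median of 0.43 over all genes. The SD of *Lrg1* was 0.37 in vehicle, 0.71 in AAV-GFP and 0.38 in AAV-miR-34b/c livers.

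The order of the libraries was largely shared. It rests in part on close pairs, which may not be separate mice. In vehicle, libraries 1 and 4 were the 2 highest for 8 genes, the exceptions being *Serpina3n* and *Lrg1*. In AAV-GFP, library 5 was the highest for 9 genes, the exception being *Lrg1*, which was highest in library 4. Among AAV-miR-34b/c livers, libraries 1 and 2 were the 2 highest for the same 8 genes as in vehicle, and libraries 5 and 7 were the 2 lowest for all 10. *Serpina3n* was highest in AAV-miR-34b/c 6, 4 and 3, at 2174, 1902 and 1838 CPM, and *Lrg1* in 4, 3 and 6. As a description over 7 libraries that include 3 close pairs and share depth and scaling, the other 8 genes correlated with each other in AAV-miR-34b/c with a median Pearson r of 0.94 (0.771 to 0.997 over 28 pairs). *Serpina3n* and *Lrg1* correlated with these 8 with a median r of 0.51 (0.03 to 0.81 over 16 pairs). The split into 8 and 2 genes follows the order of these same libraries, so lower correlations are in part built in. *Serpina3n* reached 0.813 with *Orm3* and 0.788 with *Lcn2*, within the range of the 8. The separation of the medians was small in AAV-GFP livers. There the median r was 0.706 among the 8 genes (-0.001 to 0.953) and 0.652 for *Serpina3n* and *Lrg1* with them (0.065 to 0.909). *Orm3* was lowest in AAV-GFP 4, whereas AAV-GFP 4 and 5 were the 2 highest libraries for 7 genes.

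**Figure D4:**
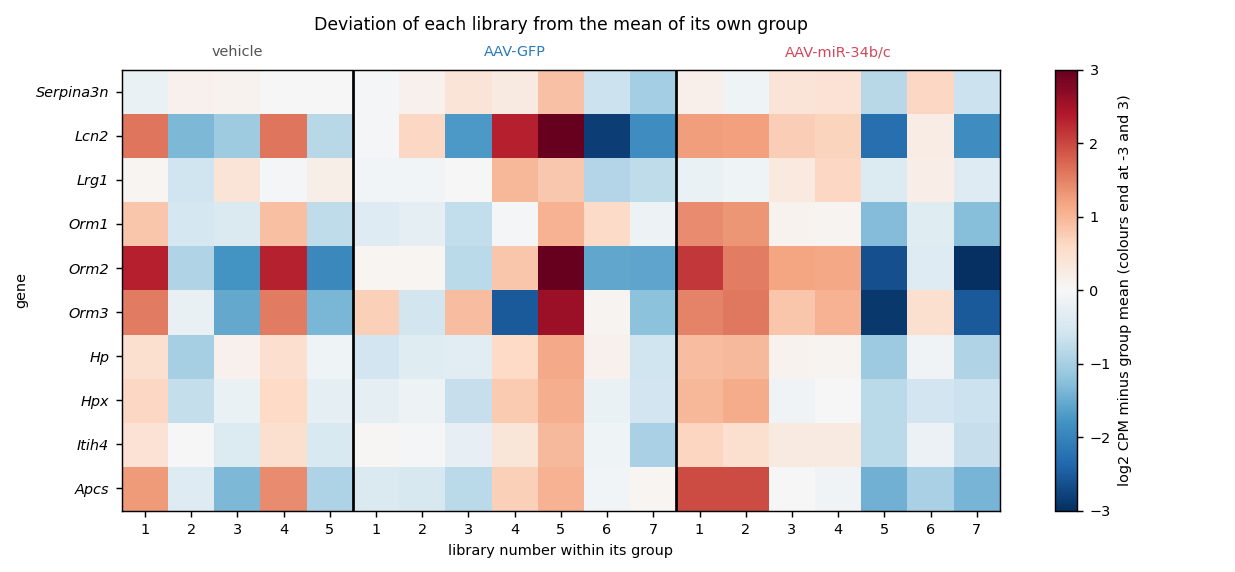
Deviation of log2 CPM in each library from the mean of its group, for the 10 genes (rows) in 19 libraries (columns), with red above and blue below the mean. Vehicle 1 and 4, AAV-GFP 5 and AAV-miR-34b/c 1 and 2 are red in most rows, and the rows of *Serpina3n* and *Lrg1* are pale in vehicle and in AAV-miR-34b/c 1 and 2.

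Neutrophil markers were highest in many of the same libraries, with AAV-GFP 6 as an exception. Neutrophils carry lipocalin 2 in their granules, and their defining markers *S100a8* and *S100a9* encode the subunits of calprotectin. The summed level of 12 neutrophil markers was 85.3 and 85.5 CPM in vehicle 1 and 4, compared to 31.6, 19.9 and 22.6 CPM in vehicle 2, 3 and 5. It was 16.7 to 79.2 CPM in AAV-GFP livers, with the highest value in library 5. The second highest was 56.2 CPM in AAV-GFP 6, where *Lcn2* (1.63 CPM) and *Lrg1* (681 CPM) were at their lowest in the group. It was 2089 and 2108 CPM in AAV-miR-34b/c 1 and 2, 439 and 462 CPM in 3 and 4, 152 CPM in 6, and 78.2 and 72.5 CPM in 5 and 7. As for the 8 genes, libraries 1 and 2 were highest, followed by 3 and 4 and then by 6, with 5 and 7 lowest. *Ly6g* had no count in vehicle and at most 5.56 CPM elsewhere. Between the TAA groups 4 of the 12 markers were tested, and 3 were called higher in AAV-miR-34b/c, compared to 1.95% of all genes. They were *S100a8* (log2 fold change 4.36, SE 0.75, edgeR adjusted p = 0.00243), *S100a9* (4.31, SE 0.80, adjusted p = 0.00415) and *Retnlg* (3.97, SE 0.74, adjusted p = 0.00447). *Retnlg* had too few counts for a test in AAV-GFP against vehicle and was kept here only through its counts in AAV-miR-34b/c. Markers high in AAV-miR-34b/c were thus more likely to be tested, and the count of calls is read as a description. In AAV-miR-34b/c 5 and 7, *S100a8* was at 21.1 and 25.1 CPM, within the range of the other groups. The marker *Ngp* was at least 3.14 CPM in every AAV-miR-34b/c library, and at most 1.73 CPM in AAV-GFP and 1.04 CPM in vehicle. In the same libraries 5 and 7, *Serpina3n* was at 797 and 897 CPM and *Lrg1* at 3721 and 3806 CPM, above every vehicle and AAV-GFP library. The other 8 genes lay there within the range of vehicle or AAV-GFP livers, such as *Orm1* at 2617 and 2657 CPM. Between AAV-GFP and vehicle 2 markers were tested, and none was called by edgeR, DESeq2 or limma-voom or had an unadjusted p under 0.05. The part of neutrophils in the levels of the 10 genes was not tested.

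Markers of other cells of the liver were examined in the same way. For comparison, edgeR called 7.54% of all genes higher and 5.19% lower in AAV-GFP against vehicle. These shares were 1.95% and 1.42% in AAV-miR-34b/c against AAV-GFP, and 12.2% and 9.75% in AAV-miR-34b/c against vehicle. Summed levels of 8 hepatocyte markers overlapped between groups (43750 to 66500 CPM in vehicle, 50250 to 60280 in AAV-GFP and 34980 to 71590 in AAV-miR-34b/c) and consisted mostly of *Alb*, which was not called in any comparison. Of the 8, *Hnf4a* and *Cyp3a11* were called higher in AAV-GFP than in vehicle, none was called between the TAA groups by edgeR or DESeq2 (2 at an unadjusted p under 0.05, and 3 called by limma-voom), and 2 were called higher and 1 lower in AAV-miR-34b/c than in vehicle. *Clec4f*, a Kupffer cell marker, was lower in AAV-GFP than in vehicle (log2 fold change -0.93, SE 0.23, edgeR adjusted p = 0.0133), as were 5 others of 10 macrophage markers. With close pairs summed, without vehicle 1 and 4, or under a mitochondrial share of 6%, only *Timd4* and *Cd163* of the 6 were called. Between the TAA groups 7 of 9 tested had a higher fitted level in AAV-miR-34b/c, 5 of the 9 had an unadjusted p under 0.05, and *Cd5l* alone was called (0.86, SE 0.17, adjusted p = 0.00553), a call that ended with close pairs summed. In AAV-miR-34b/c against vehicle 2 of 10 were called lower, and none with close pairs summed. The macrophage marker *Cd68* was not called in AAV-GFP against vehicle (0.12, SE 0.23, adjusted p = 0.754). Stellate cell markers differed between the groups, with 3 of 7 higher in AAV-GFP than in vehicle and 2 of 6 lower in AAV-miR-34b/c than in AAV-GFP, where the collagen gene *Col1a1* fell by 1.92 (SE 0.29, adjusted p = 0.000898). Against vehicle, *Col1a1* alone was called with close pairs summed or under a mitochondrial share of 6%, and under that share no stellate marker was called between the TAA groups, whereas 3 were over 6% and 2 with close pairs summed. Summed levels of 7 cholangiocyte markers were 18.6 to 40.9 CPM in vehicle, 53.6 to 95.0 in AAV-GFP and 49.9 to 118 in AAV-miR-34b/c livers. Those of 4 plasma cell markers were 25.7 to 63.4, 30.0 to 82.9 and 40.6 to 116 CPM, and those of 4 adipocyte markers had medians of at most 0.632 CPM, with *Plin1* at 0 in all libraries. The cholangiocyte marker *Spp1* was called higher in AAV-GFP than in vehicle (1.31, SE 0.29, adjusted p = 0.00795). *Sox9*, of the same list, was called higher in AAV-miR-34b/c than in vehicle (1.40, SE 0.27, adjusted p = 0.00223). The plasma cell marker *Ighm* was called lower in AAV-GFP than in vehicle (-1.19, SE 0.36, adjusted p = 0.0361). These calls ended with close pairs summed. The part of these cells in the results was not tested. The cholangiocyte marker *Krt19* was at most 6.59 CPM and the adipocyte marker *Adipoq* at most 2.63 CPM in any library.

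Transcripts of the inducing cytokines were scarce in these livers. Of 10 listed cytokines only *Il1b*, encoding interleukin 1 beta, had enough counts for a test, with medians of 5.81 CPM in vehicle, 5.03 CPM in AAV-GFP and 5.87 CPM in AAV-miR-34b/c livers, and no comparison called it. Its log2 fold change was -0.38 (SE 0.34, edgeR adjusted p = 0.473) in AAV-GFP against vehicle and 0.59 (SE 0.31, adjusted p = 0.379) in AAV-miR-34b/c against AAV-GFP. *Il6* had at most 1 count and *Tnf* at most 3 counts in any library, so that a difference was not detectable at this depth. Of 11 receptor genes, 9 were tested. *Tnfrsf1b*, a tumour necrosis factor receptor, rose in AAV-GFP against vehicle (1.39, SE 0.21, adjusted p = 0.000298). *Tnfrsf1a* (0.78, SE 0.15, adjusted p = 0.00597) and the interleukin 1 receptor *Il1r1* (1.46, SE 0.30, adjusted p = 0.00993) rose in AAV-miR-34b/c against AAV-GFP, whereas *Il1rap*, its co-receptor, fell by 0.75 (SE 0.19, adjusted p = 0.0344). With close pairs summed, only *Il1r1* of these 3 was called. The interleukin 6 receptor *Il6ra* (0.83, SE 0.37, adjusted p = 0.271) and *Il6st*, which encodes gp130 (0.53, SE 0.23, adjusted p = 0.269), did not pass the test in that comparison. *Il6st* was called higher in AAV-miR-34b/c than in vehicle (0.76, SE 0.22, adjusted p = 0.0238). Of the 9 receptors, 4 were called higher and 2 lower there, compared to 12.2% and 9.75% of all genes. With close pairs summed, *Il1rap* (lower) was the only receptor called in AAV-miR-34b/c against vehicle.

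Of 18 signal transducers and transcription factors 17 were tested, and none was called in AAV-miR-34b/c against AAV-GFP by edgeR, DESeq2 or limma-voom, with 1 of the 17 at an unadjusted edgeR p under 0.05. *Stat3* was at 140 to 198 CPM in vehicle, 73.8 to 456 in AAV-GFP and 318 to 507 in AAV-miR-34b/c livers. Its log2 fold change was 0.80 (SE 0.30, edgeR adjusted p = 0.0863) in AAV-GFP against vehicle, 0.45 (SE 0.28, adjusted p = 0.489) in AAV-miR-34b/c against AAV-GFP and 1.26 (SE 0.17, adjusted p = 0.000164) in AAV-miR-34b/c against vehicle. *Hnf4a*, a hepatocyte transcription factor, rose in AAV-GFP against vehicle (0.86, SE 0.18, adjusted p = 0.00538) and *Cebpd* fell by 0.69 (SE 0.21, adjusted p = 0.0349), both calls ending with close pairs summed, without vehicle 1 and 4, or under a mitochondrial share of 6%. *Cebpb* was not called in AAV-GFP against vehicle (-0.03, SE 0.17, adjusted p = 0.926), nor in AAV-miR-34b/c against AAV-GFP (0.18, SE 0.16, adjusted p = 0.668).

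Of 14 feedback inhibitors and early response genes 11 were tested, and in AAV-GFP against vehicle 6 of them rose and 1 fell, where 7.54% of all genes were called higher and 5.19% lower. *Junb*, an early response gene, rose by 1.72 on the log2 scale (SE 0.22, edgeR adjusted p = 5.36e-05), and *Bcl3*, an NF-kB cofactor, by 1.34 (SE 0.30, adjusted p = 0.00756). *Socs3*, the inhibitor of STAT3 signaling that STAT3 itself induces, rose by 1.11 (SE 0.27, adjusted p = 0.0129), from a median of 19.4 CPM in vehicle to 41.0 CPM in AAV-GFP livers. *Pias3*, a protein inhibitor of STAT3, fell by 1.13 (SE 0.24, adjusted p = 0.00510). Without vehicle 1 and 4 only *Junb* was still called, as was the case with a mitochondrial share under 6%, and with close pairs summed *Junb*, *Bcl3* and *Pias3* were. Between the TAA groups none of the 11 was called higher by edgeR, DESeq2 or limma-voom, with 3 at an unadjusted p under 0.05 in either direction, and *Socs3* was at 0.43 (SE 0.33, adjusted p = 0.606). *Nfkbia*, the NF-kB inhibitor, fell by 0.77 (SE 0.15, adjusted p = 0.00654) and *Dusp1*, a MAP kinase phosphatase, by 0.91 (SE 0.21, adjusted p = 0.0212), where 1.42% of all genes were called lower. Both of these calls ended with close pairs summed.

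**Figure D5:**
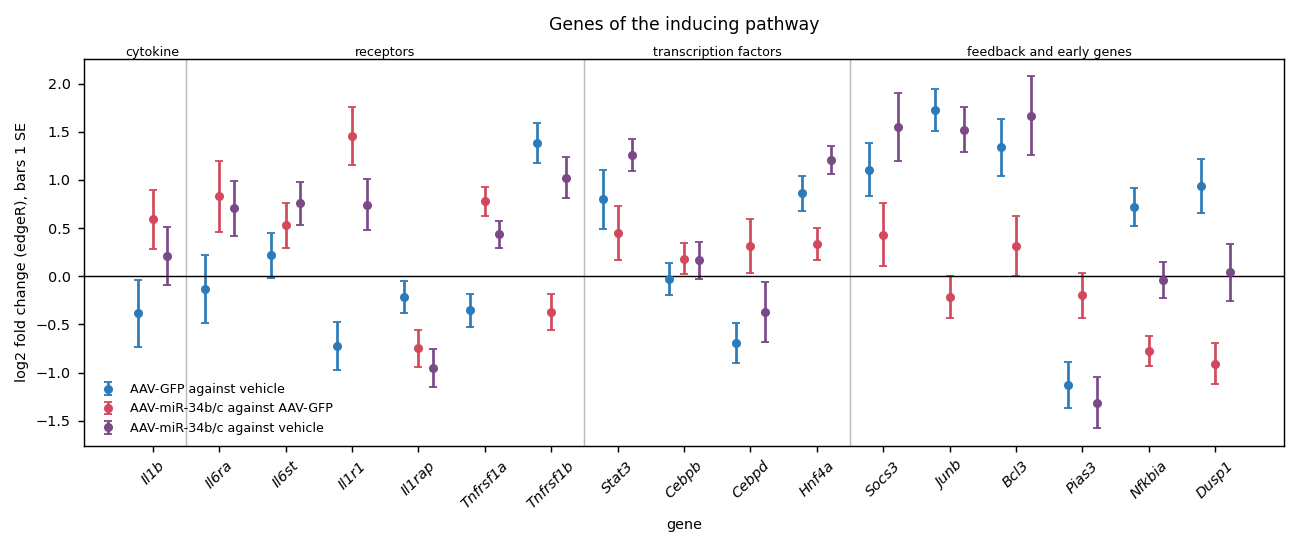
Log2 fold changes (edgeR, bars of 1 SE) of 17 genes that act in or upstream of the acute phase response, in the 3 comparisons. *Junb*, *Bcl3* and *Socs3* lie above 1 in both comparisons with vehicle and from -0.21 to 0.43 between the TAA groups, while *Il1r1* and *Tnfrsf1a* are higher and *Nfkbia* and *Dusp1* lower in AAV-miR-34b/c than in AAV-GFP.

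Of 19 other positive acute phase genes 18 were tested. Between the TAA groups 13 of them were called higher in AAV-miR-34b/c (1.95% of all genes) and none lower (1.42% of all genes), with a median log2 fold change of 1.22 compared to -0.01 over all genes. The leading genes were *Itih3*, a heavy chain related to *Itih4* (1.84, SE 0.25, edgeR adjusted p = 0.000365), the metallothionein *Mt1* (3.06, SE 0.44, adjusted p = 0.000499) and *Crp*, the other short pentraxin (1.09, SE 0.17, adjusted p = 0.00107). This list too was drawn up with results of these data known. With close pairs summed, 6 were called. In AAV-GFP against vehicle none of the 18 was called by edgeR, with 5 at an unadjusted p under 0.05, while DESeq2 called 1 and limma-voom 5. Against vehicle, 14 were called higher in AAV-miR-34b/c, where 12.2% of all genes were, and 7 with close pairs summed. Of 9 negative acute phase genes, such as *Alb*, none was called in AAV-miR-34b/c against AAV-GFP by edgeR or DESeq2. Among them 1 had an unadjusted p under 0.05, and limma-voom called 1 (*Fetub*) higher. Compared to vehicle, edgeR called 1 of the 9 (*F12*) higher in AAV-miR-34b/c and none lower. This call ended with close pairs summed. DESeq2 and limma-voom each called 4 of the 9 higher.

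Binding partners and relatives of the 10 genes were tested where counts allowed, which was the case for 13 of 23. For comparison, edgeR called 7.54% of all genes higher and 5.19% lower in AAV-GFP against vehicle, and 1.95% and 1.42% between the TAA groups. *Cd163*, the macrophage receptor that clears haptoglobin bound to haemoglobin, fell by 1.59 in AAV-GFP against vehicle (SE 0.25, edgeR adjusted p = 0.000555), and *Serpina3m*, a paralog of *Serpina3n*, fell by 0.92 (SE 0.24, adjusted p = 0.0176). *Itih5* rose by 0.67 (SE 0.21, adjusted p = 0.0448). The call of *Cd163* alone held with close pairs summed or without vehicle 1 and 4. Between the TAA groups 4 were called higher in AAV-miR-34b/c by edgeR, 2 of them (*Itih3* and *Crp*) also with close pairs summed: *Itih3* and *Crp*, given above, *Serpina3m* (1.44, SE 0.27, adjusted p = 0.00407) and *Ambp*, the light chain partner of the heavy chains (1.14, SE 0.21, adjusted p = 0.00477). None was called lower by edgeR, whereas DESeq2 called 1 lower. Against vehicle, 4 were called higher and 2 lower in AAV-miR-34b/c, compared to 12.2% and 9.75% of all genes. With close pairs summed, 1 was called higher and 0 lower.

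The genes whose deviations from the group means were most like the mean deviation of the 10 genes were sought among 7814 genes over the 19 libraries. They were *Itih3* (Pearson r = 0.92), *Isyna1* (0.89), the fibrinogen chain *Fga* (0.88), *Fgl1* (0.88), the kininogen *Kng1* (0.88) and *Steap4* (0.88), with libraries of close pairs among the points. *Isyna1*, which encodes inositol-3-phosphate synthase, was at 11.9 to 37.6 CPM in vehicle, 9.17 to 24.9 in AAV-GFP and 37.8 to 151 in AAV-miR-34b/c livers. *Itih3* ranged from 542 to 1150 CPM in vehicle, from 279 to 899 in AAV-GFP and from 1261 to 3215 in AAV-miR-34b/c livers.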

How the data were processed

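Livers of 3 groups of mice gave 19 QuantSeq 3′ mRNA libraries, which were sequenced single-end. The authors deposited 1 table of raw counts per Ensembl gene, without normalization. STAR and mm10 are named in the submitters' processing notes, versions and strand setting are not given in the sources used here, and PCR duplicates may be counted. Reads come from transcript 3′ ends, so counts depend little on gene length. Symbols and positions came from GENCODE M21 (30934 of 31053 genes). Each pair of groups was fitted with edgeR 4.0.16 in R 4.3.3 (TMM, genes kept by filterByExpr, quasi-likelihood test). The filter was used at its defaults (minimum count 10, minimum total 15), which do not ask for 10 counts in every library. P-values were adjusted over all genes by the Benjamini-Hochberg method (threshold 0.05). SE is that of the fitted log2 fold change. Levels are CPM, and exact permutation tests, two-sided, used mean log2 CPM with a prior count of 2 (smallest p 0.001263). The fit was tested on simulated data, and no outcome of that test is given or used here.

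The members, the lists and the tests were chosen with earlier results of these data known. Named are all members, the main inducers (*Il6*, *Il1b*, *Tnf*, *Il6ra*, *Il6st*, *Stat3*, *Socs3*, *Cebpb*, *Cebpd*), up to 3 called genes in each direction per list, the 6 genes most like the members and the defining cell markers. Cell marker lists were hepatocytes, neutrophils, macrophages, cholangiocytes, stellate cells, adipocytes and plasma cells. Alternatives were other normalizations and filters, DESeq2 1.42.0, limma-voom 3.58.1, 1 fit of all groups, the replicate number as a block, close pairs summed and each library left out. Leaving out vehicle 1 and 4, or AAV-GFP 4 and 5, and splitting at a mitochondrial share of 6% were chosen after seeing the data. A gene that the naming rule covers is not reported here. A planned comparison of protein sequences was replaced by that of transcript 3′ ends.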

Additional observations from a re-analysis of the deposited data

How the results depend on the processing

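Over the alternatives, 214 of 248 log2 fold changes of the 10 genes in AAV-GFP against vehicle kept their direction and call, 22 lost the call, 3 gained it and 9 reversed, of which *Orm2* alone had been called. Without vehicle 1 and 4 *Orm2* was at 0.10, *Lcn2* at 1.17 and *Hp* at 0.071, and under a mitochondrial share of 6% *Hp* was at 0.003. *Lrg1* ranged from -0.12 to 0.20 with each library left out, was below 0 without vehicle 2 (-0.03), AAV-GFP 4 (-0.12) or AAV-GFP 5 (-0.06), and was at -0.38 without AAV-GFP 4 and 5 and -0.12 under a mitochondrial share of 6%. In AAV-miR-34b/c against AAV-GFP 2 of 268, and in AAV-miR-34b/c against vehicle 6 of 240, moved by more than the spread between libraries, with no reversal. Genes called in AAV-GFP against vehicle numbered 1212, and 2687 with limma-voom, 227 with close pairs summed, 271 without vehicle 1 and 4, 704 without AAV-GFP 4 and 5, and 180 under a mitochondrial share of 6%. The members called were then 4, and 2 in 1 fit of all groups, 1, 0, 7 and 0 under the last 4 settings in that order. In AAV-miR-34b/c against AAV-GFP 311 genes were called, and 624 with library size only, 542 with DESeq2, 813 with limma-voom, 87 with close pairs summed and 614 over a mitochondrial share of 6%. In AAV-miR-34b/c against vehicle 2037 genes were called, and 3839 with limma-voom, 331 with close pairs summed, 557 without vehicle 1 and 4 and 642 under a mitochondrial share of 6%, with 6 members called in the fit of all libraries, 3 with close pairs summed and 10 under 6%. Leaving out each library gave 689 to 1859, 209 to 344 and 1267 to 2695 genes called in the 3 comparisons. Members called were then 2 to 4, 9 to 10 and 5 to 7. The count of genes was 728 and 1328 (against AAV-GFP and AAV-miR-34b/c) without vehicle 1, and 689 and 1267 without vehicle 4. In AAV-GFP against vehicle it was 806 without AAV-GFP 3, 1859 without AAV-GFP 6 and 1749 without AAV-GFP 7. The cause of these shifts was not tested, beyond there being fewer libraries in most of these fits.

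With the replicate number as a block, 3136, 142 and 945 genes were called. Correlations of same-numbered libraries, in deviations from the group means, ran from -0.09 to 0.22, -0.28 to 0.21 and -0.23 to 0.28. Of 5, 7 and 5 shared numbers, 2, 1 and 0 libraries were closest to their own number. These values cannot settle whether the numbers mark pairs of mice or a batch. The cause of the rise from 1212 to 3136 calls in AAV-GFP against vehicle was not tested. Members called with the block were 4, 7 and 9. *Orm3* in AAV-GFP livers rested on as few as 1 count in a library, and counting error limits its lowest values.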
